A study of Mus musculus with 6 samples.

Results

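The branch that leads from glycolysis to serine, and from serine to the folate pool, was examined through 10 genes of the 23504 listed in the table. The genes were taken by symbol. They were *Phgdh*, *Psat1* and *Psph* for serine synthesis, *Shmt1* and *Mthfd1* for cytosolic folate chemistry, *Shmt2*, *Mthfd1l* and *Mthfd2* for its mitochondrial counterpart, and the plasma membrane carriers *Slc1a4* and *Slc1a5*. All 10 were listed, each under 1 Ensembl identifier, and 9 of them had the mean of at least 1 FPKM (fragments counted, scaled to exon length and to the depth of the library) that was asked for a test. *Slc1a4* lay below it.

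Bone marrow-derived macrophages (BMMs), which are macrophages grown from marrow with the growth factor M-CSF, came from male C57BL/6 mice that were 6 to 8 weeks old. The 3 libraries of the experimental group were from cells given DASA-58, a small molecule that activates pyruvate kinase M2 (PKM2), together with RANKL, the cytokine that turns BMMs into osteoclasts, and the 3 control libraries were from cells given an equal volume of the solvent, DMSO. RNA was taken after 3 days. The study's results describe RANKL in both groups, whereas its methods name RANKL only for the experimental group and print the compound there as DASA-48, and no concentration is given for this experiment. The labels name no engineered allele in either group. The study's methods give 3 replicates a group, and the legend of its RNA-seq figure speaks of 3 independent replicates. Nothing states that the 3 replicates came from separate mice or cultures, so the p-values measure the spread between these libraries, which may be technical.

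Serine is made from 3-phosphoglycerate, an intermediate of lower glycolysis that lies upstream of pyruvate kinase. PHGDH oxidizes it, PSAT1 adds an amino group taken from glutamate, and PSPH removes the phosphate. SHMT1 in the cytosol and SHMT2 in mitochondria then split serine into glycine and a methylene group carried by tetrahydrofolate, and the MTHFD enzymes interconvert the folate forms that feed purines, thymidylate and methionine.

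The groups differed widely in these libraries. With a call set at an adjusted p below 0.05 (limma on log2(FPKM + 1), Benjamini-Hochberg adjustment over 10965 genes), 798 genes were lower with DASA-58 and 465 were higher, and 63.2% of the calls were lower. Centring each library on its median gave 504 lower and 597 higher (45.8% lower), a trimmed mean of log ratios gave 45.9% lower, quantile normalization 49.5% and equal library totals 71.3%, so the balance of directions depended on the scaling. Recovered depth was alike, at 18209396 to 18853041 fragments with DMSO and 18191560 to 18968556 with DASA-58. The macrophage markers were all 10 tested, with 3 higher and 2 lower, and summed to 16722 to 17578 FPKM with DMSO and 17643 to 19954 FPKM with DASA-58. In this list 1 gene alone had a mean of 15991 FPKM over the 6 libraries, so the sum mostly reflects that gene. All 9 tested osteoclast markers were lower, and the sum of that list was 778 to 833 FPKM with DMSO and 449 to 467 FPKM with DASA-58. *Ctsk*, the collagen-cleaving protease of osteoclasts, fell to 52.2% of its DMSO level. Neutrophil markers summed to 175 to 178 FPKM with DMSO and 138 to 144 FPKM with DASA-58, with 4 of 8 tested markers lower (*Ngp*, *S100a9*, *Camp* and *S100a8*). No tested marker of stromal cells was called among 3, and no lymphocyte, dendritic cell or erythroid marker reached a mean of 1 FPKM. In these bulk RNA samples fewer cells of a type and less RNA per cell cannot be told apart, and the part of the osteoclast and neutrophil markers in the results below was not tested.

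The stretch of DNA around the transcription start is shown for 4 of the genes, because these 4 show the range among the members. *Phgdh* and *Psat1* encode consecutive steps and had mean differences of opposite sign, *Shmt2* was the most abundant member, and *Slc1a4* was the least. Each window holds 250 bases before and 20 bases from the RefSeq start in GRCm38.p6, 5′ to 3′ on the gene's strand, here the minus strand for all 4. They are *Phgdh* at chr3:98339950-98340219, *Psat1* at chr19:15925040-15925309 (the first of 2 starts listed), *Shmt2* at chr10:127522425-127522694 and *Slc1a4* at chr11:20332694-20332963. The gene coordinates used for *Psat1* reach to 15947337, so this RefSeq start lies inside them. Capitals mark matches, on either strand, to CCAAT, the box bound by NF-Y (ATTGG when read on the other strand), and to TGATGNAA, the core of the element bound by C/EBP-ATF dimers. The search found no overlapping matches of the motifs in these windows.
Phgdh: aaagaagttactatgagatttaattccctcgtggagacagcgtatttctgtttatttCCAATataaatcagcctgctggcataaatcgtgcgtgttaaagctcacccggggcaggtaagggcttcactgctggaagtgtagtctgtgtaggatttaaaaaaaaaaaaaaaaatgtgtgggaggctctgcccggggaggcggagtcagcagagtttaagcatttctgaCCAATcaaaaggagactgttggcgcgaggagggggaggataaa
Psat1: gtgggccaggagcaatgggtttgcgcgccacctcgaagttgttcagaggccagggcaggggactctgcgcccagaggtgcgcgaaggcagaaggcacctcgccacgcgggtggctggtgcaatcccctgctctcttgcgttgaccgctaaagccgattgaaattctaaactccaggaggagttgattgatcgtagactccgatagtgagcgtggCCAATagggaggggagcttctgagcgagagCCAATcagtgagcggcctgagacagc
Shmt2: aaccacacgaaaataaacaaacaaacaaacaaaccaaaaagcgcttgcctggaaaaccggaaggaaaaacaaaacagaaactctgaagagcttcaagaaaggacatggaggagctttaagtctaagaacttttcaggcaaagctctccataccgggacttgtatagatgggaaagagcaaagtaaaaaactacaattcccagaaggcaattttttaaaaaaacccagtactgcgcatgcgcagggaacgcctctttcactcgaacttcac
Slc1a4: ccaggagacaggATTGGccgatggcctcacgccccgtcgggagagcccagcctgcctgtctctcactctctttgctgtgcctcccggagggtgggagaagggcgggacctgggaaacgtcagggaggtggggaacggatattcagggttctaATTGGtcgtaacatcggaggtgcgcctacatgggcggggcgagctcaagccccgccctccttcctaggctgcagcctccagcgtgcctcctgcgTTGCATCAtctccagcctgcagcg

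A window was available for 9 of the 10 genes, and *Slc1a5* had none. These genes had 10 windows, since *Psat1* has 2 starts. CCAAT was found in 7 of the 10 windows, 1 in each of 7 genes, against 35.4% of the 32851 RefSeq windows of the same 270 bases. The windows of *Shmt2* and *Mthfd1l* and that of the second *Psat1* start were those without it. In *Phgdh* matches began 193 and 23 bases before the start, at the first *Psat1* start 36 and 6 bases before it, and *Mthfd2* held 3. The *Mthfd2* and *Shmt1* windows also lie inside the gene coordinates used, which reach to 83325908 and 60811718. TGATGNAA was found in 1 of the 9 genes, *Slc1a4*, where it began 4 bases before the start on the opposite strand, and in 3.69% of all windows. The window of *Asns*, the asparagine synthetase gene through which this element was described, also held it, 23 bases before the start. Both motifs were chosen with the windows in hand, and a match describes letters, not binding.

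Of the 9 tested genes, 3 fell with DASA-58 and none rose. They were the carrier *Slc1a5*, the mitochondrial *Shmt2* and the cytosolic *Mthfd1*. Over all genes tested, 7.28% were called lower and 4.24% higher. The DASA-58 libraries lay entirely below the DMSO libraries for 6 of the 9 genes, against 21.6% of all genes, and entirely above for 2 (*Phgdh* and *Mthfd2*), against 11.8%. The median log2 fold change of the 9 was -0.14, beside -0.03 over all genes tested. Only 9 genes stand behind these shares.

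**Figure D1:**
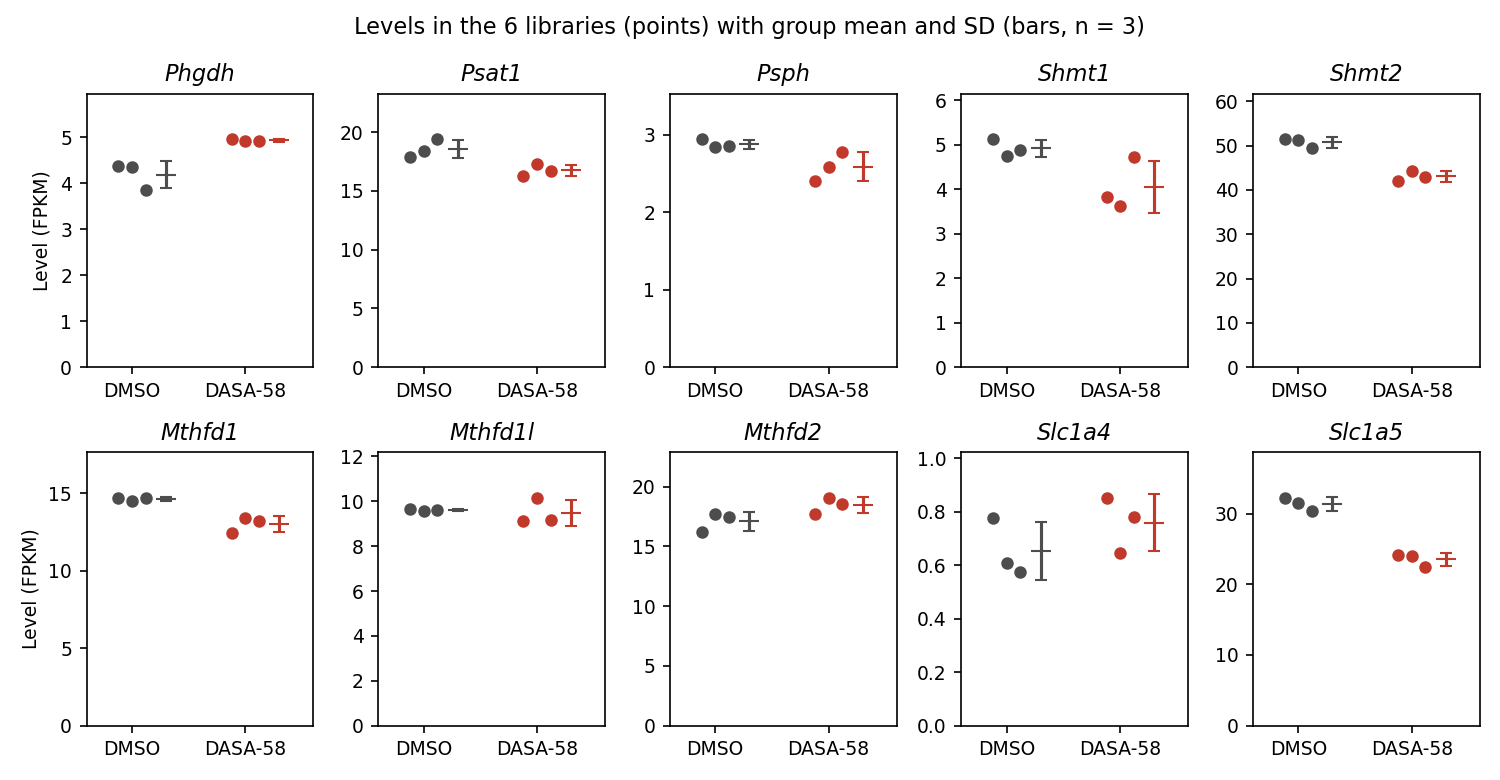
Level in FPKM (vertical axes, each starting at 0 with its own scale) of the 10 genes in the 3 DMSO libraries (grey) and the 3 DASA-58 libraries (red), 1 point a library, with the group mean and SD beside the points. The red points lie below the grey ones without overlap in Psat1, Psph, Shmt1, Shmt2, Mthfd1 and Slc1a5, above them in Phgdh and Mthfd2, and among them in Mthfd1l and Slc1a4.

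Serine synthesis was expressed unevenly. FPKM is scaled to exon length, so levels of different genes can be set side by side, within the accuracy of the lengths used. *Psat1* (ENSMUSG00000024640, chromosome 19, 15904678 to 15947337 in GRCm38, minus strand) stood several times above the other enzymes of the pathway. Its levels were 17.9, 18.4 and 19.4 FPKM in DMSO replicates 1, 2 and 3 and 16.3, 17.3 and 16.7 FPKM in DASA-58 replicates 1, 2 and 3. The lowest control lay above the highest treated library, and the mean went from 18.6 ± 0.762 to 16.7 ± 0.481 FPKM (SD, n = 3), which is 90.2% of the DMSO level. The log2 fold change was -0.14 (SE 0.041, 95% interval -0.24 to -0.05) with an adjusted p = 0.068 by limma, so *Psat1* was not called. It passed in 2 of 18 alternative settings, with an adjusted p of 0.048 when genes under a mean of 5 FPKM were left out and 0.024 with voom on recovered fragments.

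*Phgdh* (ENSMUSG00000053398, chromosome 3, 98313170 to 98339990, minus strand) encodes the entry step, and its difference had the opposite sign. It measured 4.36, 4.35 and 3.84 FPKM in the DMSO libraries and 4.96, 4.91 and 4.92 FPKM in the DASA-58 libraries. The 3 treated libraries were nearly identical and all higher than the controls, of which replicate 3 was lowest. Behind these values were 174 to 204 fragments with DMSO and 222 to 232 with DASA-58. The group means were 4.19 ± 0.297 and 4.93 ± 0.025 FPKM (SD, n = 3), the second being 118% of the first. On the log2 scale the difference of 0.19 (SE 0.055, 95% interval 0.07 to 0.32) had an adjusted p = 0.061 by limma and was not called. Its sign was the same in 17 of 17 alternatives, and it was called higher in 3 of them, each a rescaling. These were quantile normalization (adjusted p = 0.038, with 5.47% of all genes called higher), centring on the median (0.044, 5.44%) and a trimmed mean of log ratios (0.047, 5.47%). Without DMSO replicate 3 the log2 fold change was 0.15 and the adjusted p was 0.12. The processed pseudogene *Phgdh-ps1* was listed at a mean of 0.024 FPKM.

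*Psph* (ENSMUSG00000029446, chromosome 5, 129765558 to 129787449, minus strand), the phosphatase of the last step, was the lowest of the serine synthesis genes. It measured 2.95, 2.84 and 2.85 FPKM with DMSO, and 2.40, 2.59 and 2.78 FPKM with DASA-58. The groups did not overlap, but DASA-58 replicate 3 came close to the controls. This log2 fold change of -0.11 (SE 0.061, 95% interval -0.25 to 0.03) was not called (adjusted p = 0.27). *Psph* shares 452 exon bases, 10.4% of its exons, with *Cct6a* on the opposite strand, which had a mean of 46.6 FPKM. Whether the counting used strand is not given in the sources used here, so how fragments on the shared bases were assigned is not known.

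Within each library, the later enzymes were also set against *Phgdh*. The FPKM ratio of *Psat1* to *Phgdh* ranged from 4.11 to 5.05 in the DMSO libraries and from 3.29 to 3.51 in the DASA-58 libraries. That of *Psph* to *Phgdh* ranged from 0.653 to 0.743 and from 0.485 to 0.564. On the log2(FPKM + 1) scale these ratios were lower with DASA-58 by 0.33 and 0.31. The ranges did not overlap in either ratio, and the two-sided exact permutation test gave p = 0.10 for each, the smallest value that 3 against 3 libraries can give, or 0.15 after Benjamini-Hochberg adjustment over the 6 ratios compared. An exact permutation test of 3 against 3 libraries cannot reach 0.05. The members of the ratios were measured in the same libraries, and both ratios share *Phgdh*.

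**Figure D2:**
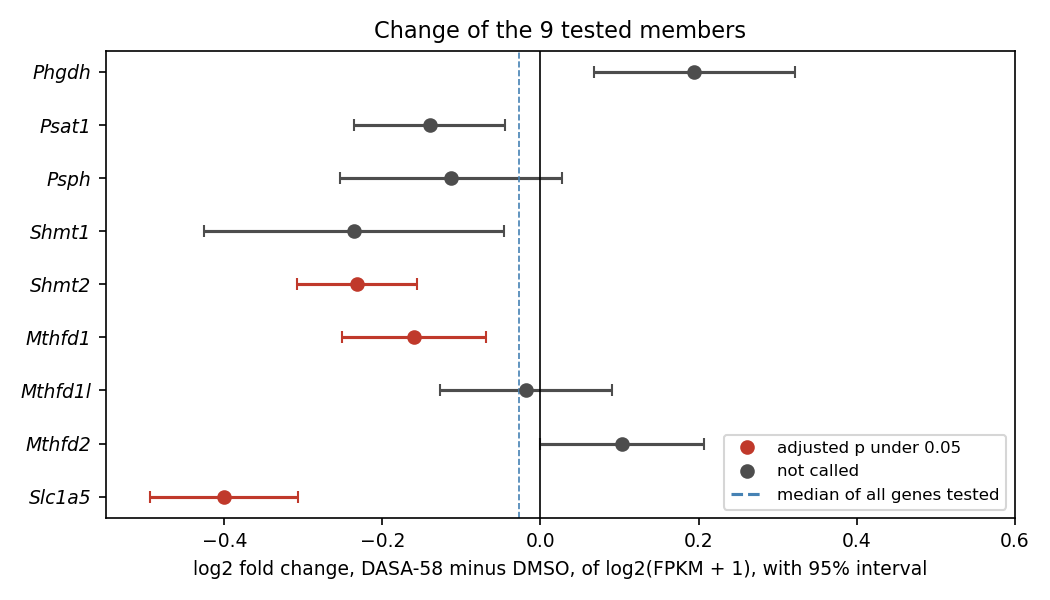
Log2 fold change, DASA-58 minus DMSO, of log2(FPKM + 1) for the 9 tested genes (horizontal axis) with the 95% interval from limma, red where the adjusted p was below 0.05, and a dashed line at the median of all genes tested. Slc1a5, Shmt2 and Mthfd1 are red on the left at -0.40, -0.23 and -0.16, and Phgdh and Mthfd2 are the points on the right at 0.19 and 0.10.

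Of the cytosolic enzymes, *Mthfd1* fell and *Shmt1* was not called. The *Mthfd1* gene (ENSMUSG00000021048, chromosome 12, 76255298 to 76319803, plus strand) encodes a trifunctional folate enzyme with dehydrogenase, cyclohydrolase and formate-ligating activities. It measured 14.7, 14.5 and 14.7 FPKM with DMSO, and 12.4, 13.4 and 13.2 FPKM with DASA-58. The controls agreed closely and every treated library was lower, with means of 14.6 ± 0.138 and 13.0 ± 0.536 FPKM (SD, n = 3). *Mthfd1* had a log2 fold change of -0.16 (SE 0.039, 95% interval -0.25 to -0.07) with an adjusted p = 0.039 by limma. This call was kept in 5 of 18 alternatives and was lost on leaving out any of the 6 libraries, DMSO replicate 1, 2 or 3 or DASA-58 replicate 1, 2 or 3, with adjusted p between 0.057 and 0.11. It was also lost when libraries were rescaled by quantiles, medians or a trimmed mean, with adjusted p from 0.0731 to 0.0739.

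*Shmt1* (ENSMUSG00000020534, chromosome 11, 60788104 to 60811718, minus strand), the cytosolic serine hydroxymethyltransferase, measured 5.12, 4.75 and 4.88 FPKM with DMSO. With DASA-58 it measured 3.82, 3.61 and 4.71 FPKM. Replicates 1 and 2 of DASA-58 were well below the controls, whereas replicate 3 lay just under the lowest of them. Its log2 fold change was -0.24 (SE 0.082, 95% interval -0.43 to -0.05; adjusted p = 0.11), about as large as that of the called *Shmt2* but with a wider interval. *Shmt1* was called in 2 of 17 alternatives. Without DASA-58 replicate 3 its log2 fold change was -0.33 with an adjusted p = 0.026, and voom gave an adjusted p of 0.026 in all libraries. With any other 1 library left out, the adjusted p was 0.16 to 0.26. *Shmt1* shares 184 exon bases (4.74%) with *Smcr8* on the opposite strand, which had a mean of 10.7 FPKM.

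Of the mitochondrial enzymes, 1 fell and the other two were not called. *Shmt2* (ENSMUSG00000025403, chromosome 10, 127517123 to 127522444, minus strand), which splits serine inside mitochondria, was the most abundant of the 10 genes. It measured 51.5, 51.3 and 49.4 FPKM with DMSO, and 41.9, 44.2 and 43.0 FPKM with DASA-58. The gap between the groups was wider than the range within either. The mean fell from 50.7 ± 1.18 to 43.0 ± 1.13 FPKM (SD, n = 3), to 84.8% of the DMSO level, on 2794 to 3009 fragments with DMSO and 2455 to 2533 with DASA-58. This log2 fold change of -0.23 (SE 0.033, 95% interval -0.31 to -0.16; adjusted p = 0.0045 by limma) was called, and the call was kept in 18 of 18 alternatives.

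*Mthfd2* (ENSMUSG00000005667, chromosome 6, 83305691 to 83325908, minus strand), the mitochondrial dehydrogenase and cyclohydrolase that acts on the folate SHMT2 produces, was not called. It measured 16.2, 17.7 and 17.5 FPKM with DMSO, and 17.8, 19.1 and 18.5 FPKM with DASA-58. The groups met without overlapping, the highest control lying just under the lowest treated library. Its log2 fold change was 0.10 (SE 0.045, 95% interval -0.00081 to 0.21; adjusted p = 0.18), with the same sign in 18 of 18 alternatives and no call in any. Its paralog *Mthfd2l* measured 0.812, 0.910 and 0.744 FPKM in the controls and 0.927, 1.11 and 0.833 FPKM in the treated libraries, too low for the test, and the groups overlapped.

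*Mthfd1l* (ENSMUSG00000040675, chromosome 10, 3973118 to 4167081, plus strand), the mitochondrial enzyme that releases formate, measured 9.66, 9.58 and 9.61 FPKM with DMSO, and 9.14, 10.2 and 9.18 FPKM with DASA-58. The controls fell inside the range of the treated libraries. The difference in log2 was -0.02 (SE 0.047, 95% interval -0.13 to 0.09; adjusted p = 0.84), a range that leaves room for changes of either sign, and the sign itself turned under 3 rescalings and without DASA-58 replicate 1 or 3.

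Related enzymes were set against each other within each library, a mitochondrial enzyme against its cytosolic counterpart for the first 2 ratios and mitochondrial paralogs for the third. The FPKM ratio of *Shmt2* to *Shmt1* was 10.0 to 10.8 with DMSO and 9.12 to 12.2 with DASA-58, overlapping ranges with a log2 difference of 0.0038 (exact permutation p = 1.0). The ratio of *Mthfd1l* to *Mthfd1* was 0.653 to 0.661 with DMSO and 0.696 to 0.756 with DASA-58, without overlap and with a log2 difference of 0.14 (exact permutation p = 0.10, adjusted 0.15). The FPKM ratio of *Mthfd2* to *Mthfd2l* was 19.4 to 23.5 with DMSO and 17.2 to 22.3 with DASA-58, overlapping ranges. Its log2 difference was 0.0017 (exact permutation p = 0.90), but -0.084 with a pseudocount of 0.1 in place of 1.

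**Figure D3:**
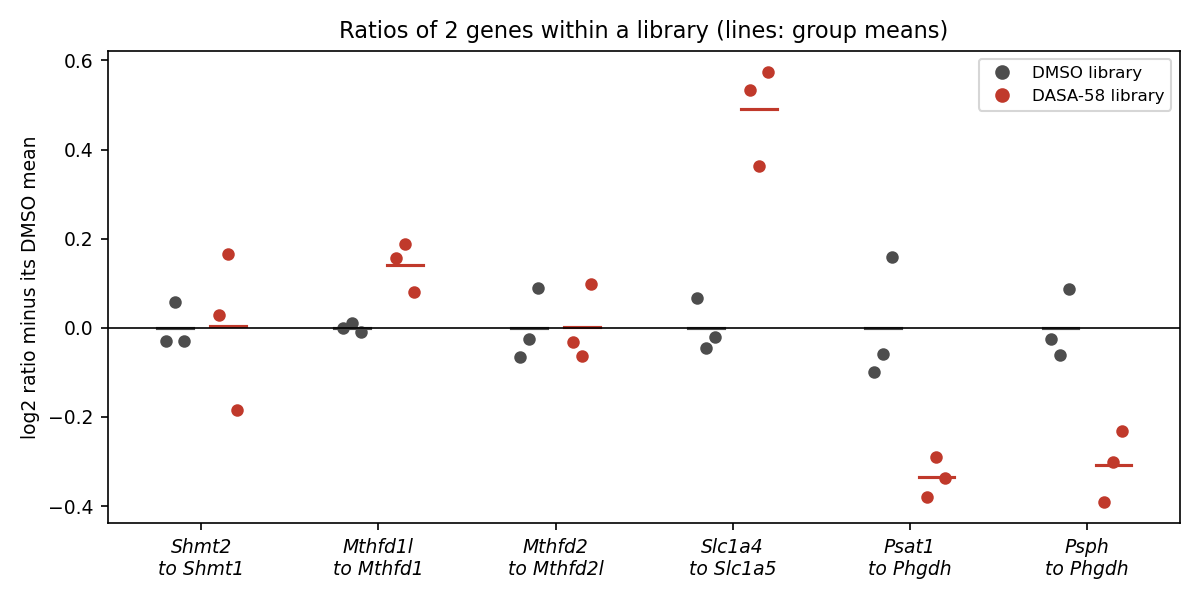
Ratio of a pair of genes within each library, as the difference of their log2(FPKM + 1) values minus the DMSO mean of that pair (vertical axis), for 6 pairs, 1 point a library, with lines at the group means. The DASA-58 points (red) separate from the DMSO points (grey) upward for Mthfd1l to Mthfd1 and Slc1a4 to Slc1a5 and downward for Psat1 to Phgdh and Psph to Phgdh, by 0.14, 0.49, -0.33 and -0.31 on average.

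Of the carriers, *Slc1a5* (ENSMUSG00000001918, chromosome 7, 16781340 to 16798274, plus strand), which exchanges glutamine, serine and other neutral amino acids across the plasma membrane and is also called ASCT2, showed the greatest decrease among the 10 genes. It measured 32.3, 31.5 and 30.3 FPKM with DMSO, and 24.1, 24.1 and 22.4 FPKM with DASA-58. The groups were far apart relative to the spread in each. The mean fell from 31.4 ± 0.985 to 23.5 ± 0.949 FPKM (SD, n = 3), to 75.0% of the DMSO level, on 2304 to 2481 and 1776 to 1894 fragments. With DASA-58 the log2 fold change was -0.40 (SE 0.040, 95% interval -0.49 to -0.31; adjusted p = 0.0011 by limma), rank 205 of 10965 counted from the most lowered gene, and the call was kept in 18 of 18 alternatives.

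*Slc1a4* (ENSMUSG00000020142, chromosome 11, 20302180 to 20332713, minus strand), the related carrier ASCT1 of serine, alanine and cysteine, was nearly silent by comparison. It measured 0.777, 0.608 and 0.574 FPKM with DMSO, and 0.852, 0.644 and 0.779 FPKM with DASA-58, on 41 to 56 and 46 to 63 fragments. The groups overlapped. When every gene was tested without a filter, its log2 fold change was 0.09 (SE 0.079, 95% interval -0.10 to 0.28) with an adjusted p = 0.67. The ratio of *Slc1a4* to *Slc1a5* was higher in every DASA-58 library, with a log2 difference of 0.49 (exact permutation p = 0.10, adjusted 0.15), of which the decrease of *Slc1a5* makes up 0.40. The glial glutamate carrier of the family, *Slc1a3*, was at most 0.039 FPKM in any library.

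Ordered by level, the DMSO libraries ran *Shmt2*, *Slc1a5*, *Psat1*, *Mthfd2*, *Mthfd1*, *Mthfd1l*, *Shmt1*, *Phgdh*, *Psph* and *Slc1a4*, and no neighbours overlapped across the 3 libraries. The DASA-58 libraries kept this order except at a pair of places. *Mthfd2*, at 17.8 to 19.1 FPKM, stood above *Psat1*, at 16.3 to 17.3 FPKM, and *Phgdh*, at 4.91 to 4.96 FPKM, stood above *Shmt1*, at 3.61 to 4.71 FPKM, in both cases without overlap between the ranges. The swaps of order were not tested.

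Read as weighted recovered fragments with voom, an alternative chosen after seeing the data, 5 of the 9 genes were lower, namely the 3 above with *Psat1* and *Shmt1*, against 11.9% of the 9572 genes in that fit. With fragments, as with FPKM, *Phgdh* was not called (log2 fold change 0.24, adjusted p = 0.11).

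Around these genes, other enzymes of the folate, glycine and tetrahydrobiopterin pathways changed in a few places. Of 21 listed, 15 were tested, 3 fell and 1 rose, with a median log2 fold change of -0.07. The lower calls were fewer with any 1 library left out, as were those over all genes (387 to 603 against 798). None was left without DMSO replicate 1 or 3 or without DASA-58 replicate 3, 1 was left without DASA-58 replicate 1 or 2, and 2 without DMSO replicate 2. *Gcsh*, the lipoate-bearing H protein of the glycine cleavage system, went from 47.3 ± 0.517 to 42.1 ± 1.51 FPKM (SD, n = 3; log2 fold change -0.17, adjusted p = 0.019). *Gch1*, the first enzyme of tetrahydrobiopterin synthesis, and *Mtr*, methionine synthase, which takes its methyl group from folate, fell to 88.3% and 88.2% of their DMSO levels (adjusted p = 0.022 and 0.031). *Ggh*, the lysosomal hydrolase that shortens folate polyglutamates, rose from 34.4 ± 0.139 to 40.5 ± 1.96 FPKM (log2 fold change 0.23, adjusted p = 0.0092). *Ggh* was called in 6 of 6 fits that left out 1 library, *Gcsh* and *Gch1* in 2 each and *Mtr* in 0. *Tyms*, thymidylate synthase, overlapped between the groups and was at 104.6% of DMSO.

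Of 10 tested carriers of folate and of mitochondrial serine, glycine or glutathione, 9 had a negative log2 fold change, against 59.8% of all genes tested, and 2 fell and none rose, with a median of -0.10. *Sfxn3*, a sideroflexin of the family that imports serine into mitochondria, went from 27.2 ± 0.991 to 22.9 ± 0.663 FPKM (log2 fold change -0.23, adjusted p = 0.0090). *Slc19a1*, the reduced folate carrier of the plasma membrane, went from 4.72 ± 0.313 to 3.86 ± 0.162 FPKM (log2 fold change -0.23, adjusted p = 0.041). Only 1 of the 10 was lower under the trimmed mean of log ratios, and also without DMSO replicate 1 or 2 or any 1 of the DASA-58 replicates 1, 2 and 3. *Sfxn3* was called in all 6 fits that left out 1 library and *Slc19a1* in 1. *Sfxn1* was at 90.4% of DMSO with an adjusted p = 0.14.

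Among the users of these products, purine synthesis had 13 of 13 genes tested, of which 2 fell and none rose, with a median log2 fold change of -0.09. They were *Impdh2*, the committed step to guanine nucleotides (57.1 ± 1.75 to 47.9 ± 1.42 FPKM, adjusted p = 0.0046), and *Adss*, of the adenine branch (87.6% of DMSO, adjusted p = 0.026). *Paics*, *Gart* and *Atic*, enzymes of the shared upstream route, were at 107.3%, 94.5% and 92.8% of DMSO without a call. Scaled by a trimmed mean of log ratios, 1 purine gene was lower and 1 was higher. Likewise 1 was lower without DMSO replicate 2 or 3 or DASA-58 replicate 1 or 3, *Impdh2* being called in all 6 fits with a library left out and *Adss* in 2. The methionine cycle and polyamine list had 14 tested, 4 lower and none higher, with a median of -0.05. *Srm*, spermidine synthase (36.5 ± 2.32 to 29.9 ± 0.470 FPKM, adjusted p = 0.0097), and *Mat2a*, which makes S-adenosylmethionine (44.2 ± 2.16 to 37.3 ± 0.444 FPKM, adjusted p = 0.0092), fell with the methionine salvage enzymes *Mri1* and *Enoph1* (82.2% and 90.1% of DMSO, adjusted p = 0.021 and 0.047). The 4 became 2 without DMSO replicate 1 or 2 or DASA-58 replicate 2 or 3, and 0 without variance shrinkage. *Srm* and *Mat2a* were called whichever library was left out, *Mri1* in 2 of the 6 fits and *Enoph1* in 0. Of 12 tested genes that use serine for sphingolipids, phosphatidylserine, cysteine or transfer RNA, limma called 0, with 6 at an unadjusted p under 0.05, a limit that 27.8% of all genes tested passed. With voom, 2 of the 12 were lower and 1 was higher, and limma called 1 lower without DMSO replicate 3 and 1 higher without DMSO replicate 2.

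Of the other plasma membrane amino acid carriers, 15 of 23 were tested, 3 fell and none rose, and the median log2 fold change was 0.00. The 3 were *Slc7a6* (79.4% of DMSO, adjusted p = 0.015) and *Slc7a1* (81.0%, 0.027), which carry cationic amino acids, and *Slc38a2* (85.2%, 0.024), a sodium-coupled carrier of small neutral amino acids. Of the 3 lower carriers, 1 was left without DMSO replicate 1 or 3 or any 1 of the DASA-58 replicates 1, 2 and 3, and 0 when low genes were kept in the test. *Slc7a6* was called in 5 of 6 fits that left out 1 library, *Slc38a2* in 2 and *Slc7a1* in 0. Of the glycolytic genes around the branch point, 9 were tested and 1 rose, *Aldoa* (386 ± 7.34 to 420 ± 4.60 FPKM, adjusted p = 0.020), and none fell. Under the trimmed mean 3 were higher and none lower, and 2 were higher without DMSO replicate 3. None was higher without DMSO replicate 1 or any 1 of the DASA-58 replicates 1, 2 and 3. The same held without the filter on low values, without a variance trend or without shrinkage. *Aldoa* was called in 2 of 6 fits that left out 1 library (log2 fold change 0.11 to 0.13, adjusted p 0.024 to 0.083). *Pgk1* and *Pgam1*, which make and use 3-phosphoglycerate, were at 105.7% and 105.6% of DMSO (adjusted p = 0.095 and 0.070). *Eno1*, *Gapdh* and *Pkm*, the gene of the enzyme DASA-58 targets, were at 97.6%, 104.5% and 99.9% (adjusted p = 0.39, 0.61 and 0.99). The table gives 1 value for *Pkm* and does not separate its splice forms.

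**Figure D4:**
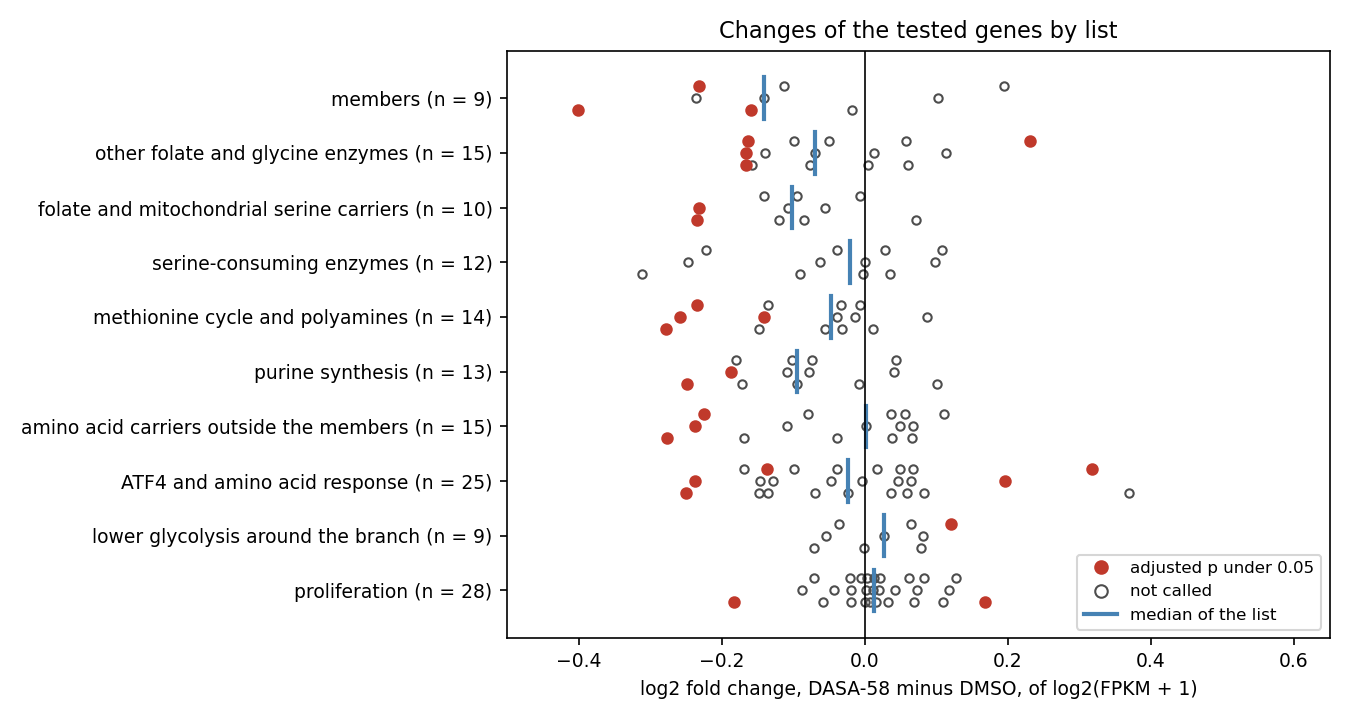
Log2 fold change, DASA-58 minus DMSO, of log2(FPKM + 1) (horizontal axis) for every tested gene of the members and of 9 surrounding lists (rows), red where the adjusted p was below 0.05, with a blue bar at each list's median. The members' median lies at -0.14 and those of the other lists between -0.10 and 0.03, and most points of each list are open, that is not called.

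Several serine pathway genes are known targets of ATF4, the transcription factor of the amino acid response, so that list was counted too. *Atf4* itself measured 107.7, 104.8 and 108.4 FPKM with DMSO, and 96.1, 97.8 and 97.6 FPKM with DASA-58. It fell to 90.8% of the DMSO level without overlap (log2 fold change -0.14, SE 0.026, adjusted p = 0.015). Of the 25 tested genes of the list, 3 fell (*Atf4*, *Nupr1* and *Slc7a1*) and 2 rose (*Atf5* and *Atf3*), with a median log2 fold change of -0.02. *Nupr1*, a stress-induced chromatin protein, went from 21.9 ± 0.698 to 18.3 ± 0.258 FPKM (adjusted p = 0.0046), whereas *Atf5*, a relative of *Atf4*, went from 22.9 ± 1.35 to 28.8 ± 0.686 FPKM (adjusted p = 0.0050) and *Atf3* was at 115.2% of DMSO (adjusted p = 0.031). *Asns* overlapped between the groups at 14.4 ± 0.726 and 14.2 ± 0.980 FPKM (adjusted p = 0.83). *Nupr1* and *Atf5* were called in 6 of 6 fits that left out 1 library, *Atf4* in 3, *Atf3* in 1 and *Slc7a1* in 0. The lower calls became 1 without DMSO replicate 1 or DASA-58 replicate 1 or 3, and the higher calls became 1 without any 1 of the libraries other than DMSO replicate 1. *Slc7a1* stands in this list and in that of the carriers.

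Folate enzymes are also known to follow cell division, and the proliferation list had 1 call in each direction, with 9 negative and 19 positive log2 fold changes. The negative share was 32.1%, beside 59.8% over all genes tested, of which 7.28% were called lower and 4.24% higher. Of 28 genes, all tested, *Pcna*, the polymerase clamp, rose to 112.4% of DMSO (adjusted p = 0.035), *Cdc20*, an activator of the anaphase-promoting complex, fell to 88.0% (adjusted p = 0.0037), and the other 26 were not called. *Cdc20* was called in 6 of 6 fits that left out 1 library and *Pcna* in 1 (adjusted p 0.017 to 0.107). The higher calls numbered 0 without DMSO replicate 1 or 3 or any 1 of the DASA-58 replicates 1, 2 and 3, and 2 without DMSO replicate 2 and under 3 rescalings. *Mki67*, the general marker of dividing cells, measured 40.2 ± 0.493 FPKM in the controls and 40.6 ± 1.05 FPKM in the treated libraries. The summed level of the list was 1234 to 1276 FPKM with DMSO and 1245 to 1298 FPKM with DASA-58, overlapping ranges with a median log2 fold change of 0.01.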

How the data were processed

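RNA of BMMs was sequenced in 6 libraries. The authors deposited FPKM values, which scale the fragments of a gene to its length and to the library's depth, for 23504 genes. The submitters' processing notes name HISAT2 2.1.0, HTSeq 0.6.0 and the build mm8. The annotation and the use of strand are not given in the sources used here, but with exon lengths of GENCODE mouse release 21 (GRCm38) 90.8% of genes gave whole fragments in all libraries, within 0.01 of a fragment. Gene coordinates are from that release and symbols matched 23455 identifiers. All value columns were used and 0 were left unmapped. A count of 0 allows 3 fragments, which is 0.158 to 0.165 FPKM on 1000 bases and covers counting error only.

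Groups, taken from the treatment label, were tested in R 4.3.3 using limma 3.58.1 (lmFit, eBayes with a trend) on log2(FPKM + 1) over all 6 libraries, for genes averaging 1 FPKM or more. Fold changes on this scale understate those of low genes. Ratios of log2(FPKM + 1) values were compared with a two-sided exact permutation test in SciPy 1.17.1. The study's methods give a t-test for 2 groups, and limma was used instead since it fits all genes together. The 10 genes are all named, and of each surrounding list the called genes, up to 4 a direction, with *Mthfd2l*, *Slc1a3*, *Atf4*, *Asns*, *Pgk1*, *Pgam1*, *Eno1*, *Pkm*, *Gapdh*, *Mki67* and *Ctsk*. Other genes named (*Tyms*, *Sfxn1*, *Paics*, *Gart*, *Atic* and those overlapping a member) were chosen after their values were seen. The genes and the lists were chosen with earlier results of these data known. Alternatives were other pseudocounts, filters, scalings and variance models, a replicate block, each library left out and, added after seeing the data, voom on recovered fragments. The statistics were tested on simulated data with log2 changes of 0.5 and 1. The members' changes were smaller, so the detection of changes of their size was not tested. Promoter windows are from RefSeq. Python 3.11.15 with pandas 2.3.3 and numpy 2.4.6 made the tables, and matplotlib 3.10.9 the plots.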

Additional observations from a re-analysis of the deposited data

How the results depend on the processing

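*Slc1a5* and *Shmt2* stayed below an adjusted p of 0.05 in all 18 alternatives. *Mthfd1*, the third member called lower, kept its call in 5 of the 18 and in 0 of the 6 fits that left out 1 library. The number of members lower was 5 with voom, and the number higher was 1 with quantile normalization, centring on the median and a trimmed mean of log ratios. Over all genes, the lower calls numbered 372 without a filter, 504 with median centring, 509 with the trimmed mean, 515 without a variance trend, 314 without shrinkage and 387 to 603 with 1 library left out. The higher calls numbered 257 without a filter, 227 without shrinkage and 272 to 375 with 1 library left out. The sign turned for values near 0. *Mthfd1l* became 0.0106, 0.00845 and 0.00750, *Asns* 0.00393, 0.00310 and 0.00299 and *Pkm* 0.045, 0.026 and 0.028 under quantile, median and trimmed-mean scaling, *Eno1* became 0.00096 under quantile normalization and *Mki67* -0.0035 with equal totals. With 1 library left out, *Mthfd1l* ranged from -0.064 to 0.0059, *Asns* from -0.072 to 0.021, *Pkm* from -0.015 to 0.0066 and *Mki67* from -0.00020 to 0.034. With a pseudocount of 0.1 the log2 difference of the *Mthfd2* to *Mthfd2l* ratio was -0.084 and that of *Slc1a4* to *Slc1a5* was 0.61. The cause of these shifts was not tested.

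The study names no pairing, so the replicate numbers were not taken to pair libraries. Same-numbered libraries did not deviate together (correlations -0.015, 0.016 and -0.016). With a replicate block, 579 genes were lower and 378 higher, and 2 members were lower, *Mthfd1* having an adjusted p of 0.077. *Slc1a4*, *Psph* and *Phgdh* rest on the fewest fragments of the 10 genes, 41 to 234 a library.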
